A study of Mus musculus with 9 samples.

Results

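The genes described here encode netrins and their receptors, and the question was where peaks of the RNA-binding protein SAFB lay in their transcripts in mouse embryonic stem cells. The members are 2 ligand genes, Ntn1 and Ntn4, and 6 receptor genes, Dcc, Neo1, Unc5a, Unc5b, Unc5c and Unc5d, out of 21951 protein-coding genes in the annotation used. A peak was counted for a gene when its midpoint lay inside the gene body on the transcribed strand (a sense peak). The family was selected on the number of listed peaks in Ntn1, which was known to be high, so the number of peaks per member is a description and was not tested. Of the 30998 peaks in the deposited list, 60 lay in the 8 genes.

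The list comes from RIP-seq, in which RNA bound to a protein is recovered with an antibody and sequenced, on sonicated lysates of male CAST/B6 Rosa26-RMCE embryonic stem cells. All 9 libraries came from cells given doxycycline for 3 days. Wild-type cells were precipitated with a SAFB1 antibody (3 libraries, from the parent line, clone 20 and clone 44) or with IgG (2, parent line and clone 20). Cells lacking Safb1 and Safb2 (safb1/2 dko) were precipitated with the SAFB1 antibody (2, clone 4 and clone 13). Clone 13 carrying an egfp plasmid or a full-length safb1 plasmid was precipitated with a FLAG antibody (1 each), and the last of these is labelled wild type by genotype but named as clone 13 in its title, which was followed. The knockout libraries represent single clones, and both plasmid libraries come from the same clone. The 1 deposited list gives positions without reads per library, so antibodies and genotypes could not be compared, the depth behind a peak is unknown and no value has replicates. The intervals given for numbers and shares of peaks reflect counting error alone and assume that peaks are independent.

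Netrins are secreted proteins related to laminins that guide growing axons and migrating cells. Netrin-1, the product of Ntn1, attracts axons through the receptor DCC and its relative neogenin, encoded by Neo1, and repels them through the UNC5 receptors, alone or together with DCC. Netrin-4 lies in basement membranes, where it binds laminin. DCC and UNC5 proteins are also known as dependence receptors, which can signal cell death when no ligand is bound, and neogenin is also a receptor for repulsive guidance molecules.

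Ntn1 held nearly all of the family's SAFB peaks. Its gene body (ENSMUSG00000020902.12, mm10 chromosome 11, 68209364 to 68400823, minus strand, 191 kb) contained 53 sense peaks (exact Poisson interval 39.7 to 69.3), which is 88.3% of the peaks of the family. The other ligand gene, Ntn4 (chromosome 10, 93640681 to 93747207, plus strand, 107 kb), contained 0. Among the receptors, Neo1 (chromosome 9, 58874687 to 59036441, minus strand, 162 kb) had 4 peaks, Unc5d (chromosome 8, 28646717 to 29219636, minus strand, 573 kb) had 2 and Unc5b (chromosome 10, 60762593 to 60831581, minus strand, 69.0 kb) had 1. Dcc, the longest member at 1097 kb (chromosome 18, 71253634 to 72351069, minus strand), had 0, as did Unc5c (chromosome 3, 141465216 to 141834924, plus strand, 370 kb) and Unc5a (chromosome 13, 54949411 to 55006018, plus strand, 56.6 kb). The peaks of a gene share its RNA and are not replicates of each other.

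**Figure D1:**
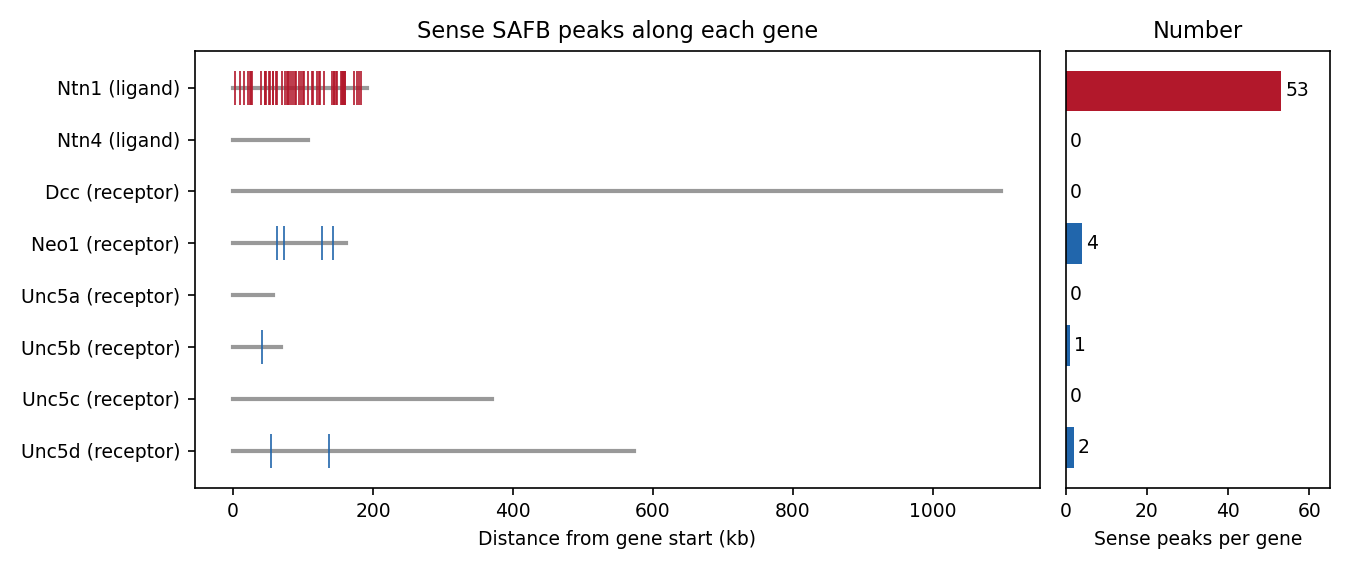
Sense SAFB peaks along the 8 genes, drawn to scale from the gene start (left, kb; each line is a gene body and each tick a peak midpoint), with the number of peaks per gene (right). Ntn1 has 53 ticks over 191 kb, whereas the 1097 kb of Dcc have 0.

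Only parts of the peak sequences could be read, since transcript sequences of the same build (GENCODE M21) were available and intron sequence was not used here. Shown first is part of the Ntn1 peak whose midpoint lies in an exon, which has 770 of its 1326 bases in that exon. The others are part of a wide intronic peak of Ntn1 that covers a small annotated non-coding gene, and the coding exons that lie within a pair of Neo1 peaks. Capitals mark runs of at least 6 purines (A or G), the kind of sequence SAFB proteins are described to prefer. The sequences are on the strand of the RNA, 5′ to 3′, from mm10.
Ntn1 coding exon, chr11:68385103-68385402, minus strand: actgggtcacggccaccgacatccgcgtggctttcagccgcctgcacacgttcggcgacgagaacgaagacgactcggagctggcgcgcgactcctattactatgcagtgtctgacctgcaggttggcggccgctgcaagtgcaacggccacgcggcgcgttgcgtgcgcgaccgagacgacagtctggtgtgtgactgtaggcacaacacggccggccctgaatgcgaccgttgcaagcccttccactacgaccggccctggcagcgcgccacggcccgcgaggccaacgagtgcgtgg
Ntn1 intron within Gm12305, chr11:68270543-68270842, minus strand: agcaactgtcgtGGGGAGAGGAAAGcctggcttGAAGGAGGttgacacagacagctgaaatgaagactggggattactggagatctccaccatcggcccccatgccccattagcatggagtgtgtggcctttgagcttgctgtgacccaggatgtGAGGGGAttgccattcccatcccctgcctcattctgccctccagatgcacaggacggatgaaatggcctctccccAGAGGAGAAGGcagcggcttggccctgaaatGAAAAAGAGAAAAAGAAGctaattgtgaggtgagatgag
Neo1 coding exon of the most 3′ peak, chr9:58893875-58894022, minus strand: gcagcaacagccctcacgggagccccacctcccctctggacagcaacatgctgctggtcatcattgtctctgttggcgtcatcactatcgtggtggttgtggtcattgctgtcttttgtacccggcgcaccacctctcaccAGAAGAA
Neo1 coding exon of the neighbouring peak, chr9:58908404-58908499, minus strand: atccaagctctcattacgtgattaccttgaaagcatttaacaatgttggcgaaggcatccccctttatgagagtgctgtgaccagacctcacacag

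The coding stretches were not rich in purine runs. The Ntn1 stretch, which runs from the laminin N-terminal domain into the first laminin-type EGF repeat, was 51.0% purine and held 0 such runs. Among all 109208 non-overlapping coding windows of 300 bases, 96.4% held at least 1 run, and the median window was 52.0% purine (quartiles 48.3 and 55.3). Over all 770 coding bases of that peak, purine runs took up 3.25% of bases, and the purine share was 48.3% against 50.2% in the rest of the transcript. The Neo1 stretch of 148 bases, from the exon of the membrane-spanning segment, was 41.9% purine with 1 run, at its 3′ end, and 85.5% of coding windows of that length held a run. The Neo1 stretch of 96 bases was 47.9% purine with 0 runs, and 73.4% of coding windows of its length held 1. The stretch inside Gm12305 differed from these, with 57.0% purines and 5 runs that took up 19.0% of its 300 bases. The share of 19.0% was above that of 86.5% of the coding windows of 300 bases. Over all 337 exonic bases of Gm12305 in that peak, both values were lower, with 54.6% purines and 16.9% in runs. The stretch is not coding, and no windows of non-coding sequence were made, so whether it is rich for its kind was not tested. On the other strand, where a purine run reads as a run of at least 6 pyrimidines in the printed letters, such runs took up 2.33%, 7.0%, 14.9% and 9.38% of the stretches, in the order shown. Coding windows held such a pyrimidine run in 93.2% of cases at 300 bases, 76.1% at 148 and 61.3% at 96. These 4 stretches are a small part of the family's peaks, and no match says only that these letters are not in that stretch.

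By density, Ntn1 stood at the upper edge of genes of its size, while Neo1 lay above the median of its class and Unc5d below that of its own. Ntn1 had 0.277 peaks per kb and ranked 2 of 1925 protein-coding genes from 100 to 300 kb, whose median was 0.0129 and upper quartile 0.0324 per kb. By number of peaks it ranked 11 among protein-coding genes of all lengths. Neo1, in the same class, had 0.0247 per kb, above 67.4% of it. Unc5b, with 1 peak, had 0.0145 per kb, above 62.2% of the genes from 30 to 100 kb, most of which had 0 peaks. The median of that class was 0, so any gene with a peak lay above it, and Unc5b lay below the upper quartile of 0.0254. Unc5d had 0.00349 per kb against a median of 0.00749 in genes of at least 300 kb. With peaks narrower than the median of the list (596 bases) left out, Ntn1 kept 18 peaks and ranked 17 in its class.

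The share of members with a peak was near that of genes of their lengths. At least 1 peak was present in 4 of the 8 members, against 26.2% of all protein-coding genes, a class in which most genes are shorter. In genes of the members' own lengths the share was 42.4% from 30 to 100 kb (Unc5a without and Unc5b with a peak), 68.1% from 100 to 300 kb (Ntn1 and Neo1 with, Ntn4 without) and 68.6% at 300 kb and above (Unc5d with, Dcc and Unc5c without). Dcc and Unc5c are thus among 178 of 567 genes of at least 300 kb with 0 listed peaks. RNA levels of these genes are not given by the list, so whether the empty genes were transcribed in these cells was not tested. In bulk lysates, fewer cells with an RNA and less of it per cell cannot be told apart.

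**Figure D2:**
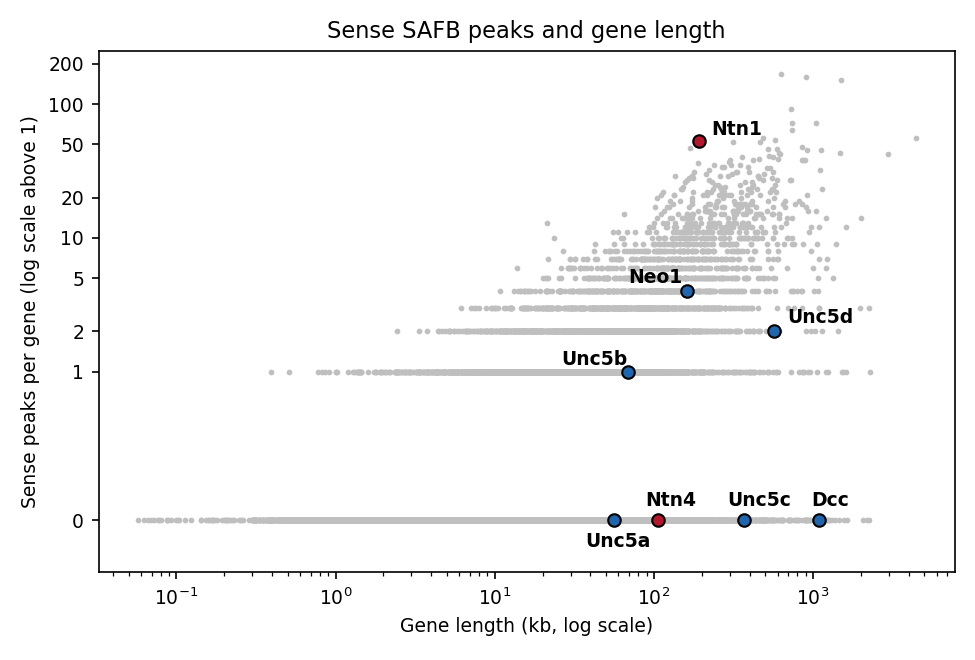
Sense SAFB peaks per gene (y axis, logarithmic above 1) against gene length (x axis, kb, logarithmic) for 21951 protein-coding genes (grey), with ligand genes in red and receptor genes in blue. Ntn1, with 53 peaks, lies on the upper edge of the cloud at its length of 191 kb, and 4 members lie at 0.

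Summed by role, the ligand genes held 53 peaks in 298 kb (0.178 per kb) and the receptor genes 7 peaks in 2327 kb (0.00301 per kb), a density ratio of 59.1. The ratio rests on Ntn1. With Ntn1 left out the ligand side had 0 peaks and the ratio was 0. With Dcc left out of the receptors, which removes 1097 kb without a peak, the ratio was 31.3.

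Along Ntn1, peaks ran through almost the whole transcript. The first lay 2.21 kb from the gene start and the last 183 kb from it, and 18 of the 20 windows of 10 kb (the last one shorter) held at least 1, with a median of 3 and a maximum of 6 in the 19 full windows. The first 50% of the gene held 27 peaks and the remainder 26. The window from 30 to 40 kb held no midpoint, although part of a wide peak reached into it, and the longest stretch without any peak was 12.6 kb, from 160 to 173 kb. The last 8.40 kb of the gene, which include the terminal exon, held 0 peaks. Neighbouring peaks were separated by a median of 2.05 kb, with 15 of the 52 gaps under 1 kb and 8 over 5 kb. The median gap between same-strand peaks of the whole list was 17.6 kb, which includes stretches between genes. Short gaps in Ntn1 follow from its high number of peaks, on which the family was selected, and are no separate result.

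**Figure D3:**
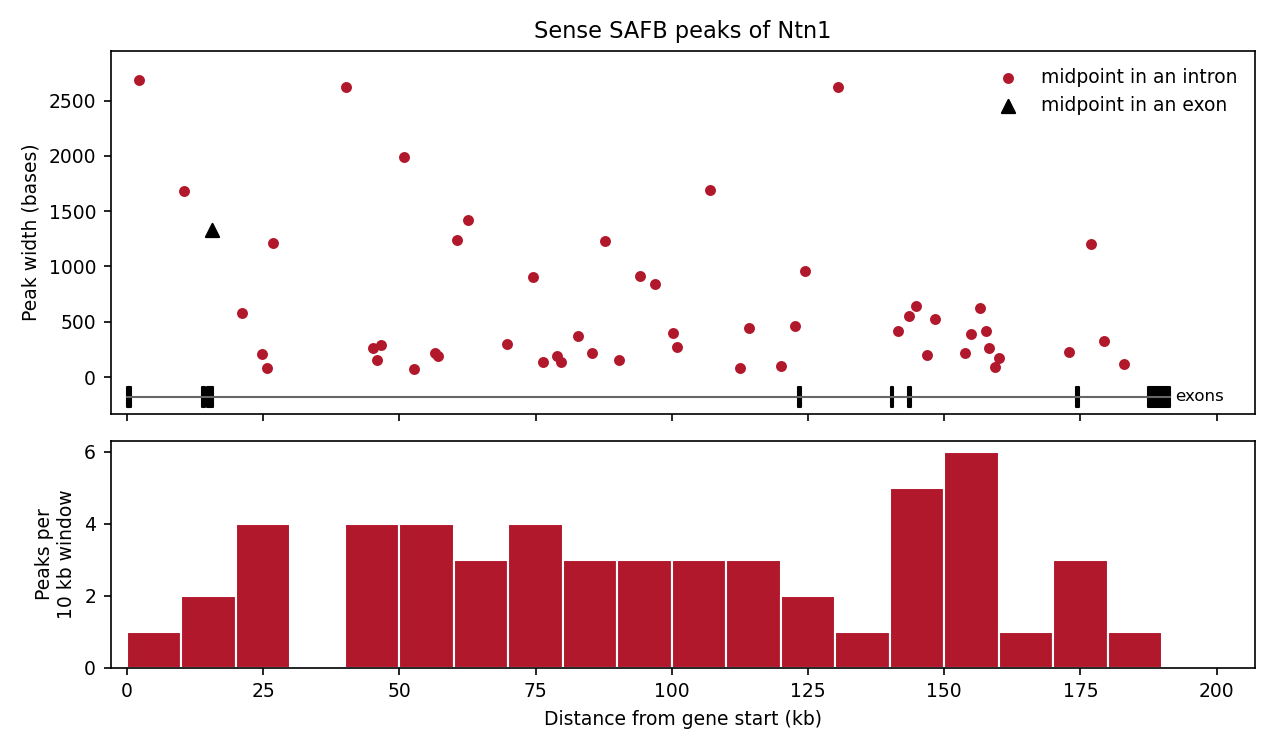
Width of each of the 53 Ntn1 peaks in bases against the distance of its midpoint from the gene start in kb (top, with exons as black boxes drawn at least 0.5 kb wide), and the number of peaks in each 10 kb window (bottom). The peaks extend from 2.21 to 183 kb, the 3 widest lie at 2.21, 40.1 and 130 kb, and only 1 midpoint is in an exon.

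Nearly all of these peaks were intronic. Of the 53 midpoints 1 lay in an exon (1.89%, 95% Wilson interval 0.334 to 9.94), the coding exon shown above, and 1 further peak touched an exon, by 21 bases. Annotated exons make up 6.28 kb of the 191 kb gene body, so introns are most of its length. The exonic share of the whole list was not computed, so a preference for introns is not shown. The long intron 4 (107 kb, 56.1% of the gene) held 32 peaks, or 60.4%. Intron 7 (30.8 kb, 16.1% of the gene) held 12 peaks, or 22.6%, at 0.389 per kb. Intron 5, of 16.8 kb, had 2 peaks at 0.119 per kb, a lower density than intron 4 (0.298 per kb) or intron 7. Introns 2, 6 and 8 held 2, 1 and 3 peaks. Intronic midpoints lay a median of 14.5 kb from the nearest exon, 34 of them more than 10 kb away and 2 within 1 kb. Introns are numbered 5′ to 3′ between the merged exons of all transcripts.

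Ntn1 peaks were narrower than those of the list as a whole. Their median width was 389 bases (quartiles 201 and 912, range 75 to 2683), against 596 for all peaks. Widths under 300 bases made up 43.4% of Ntn1 peaks (23 of 53) and 25.9% of the list, and widths of at least 1000 bases 22.6% (12) and 28.9%. Of these 12 wide peaks, 9 lay in the first 50% of the gene. The widest peak, of 2683 bases, lay in intron 2 close to the gene start. The next, of 2621 bases, lay in intron 4 at 40.1 kb, and the third, of 2619 bases, in intron 5 at 130 kb, where it covers the small non-coding gene Gm12305 (68269558 to 68270879, same strand). Together the peaks covered 18.3% of the Ntn1 gene body (35033 bases), against 1.75% of Neo1, 1.51% of Unc5b and 0.166% of Unc5d.

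Peaks within the gene bodies were mostly on the transcribed strand. The Ntn1 body held 2 peaks on the opposite strand, and the bodies of the other 7 members held 0, so that 96.8% of the 62 peaks in the family's gene bodies were sense (interval 89.0 to 99.1). Both opposite-strand peaks lay wholly within a sense peak of Ntn1, at 40.1 kb and at 50.9 kb. Over all protein-coding genes with a sense peak, 24.3% of 2708 opposite-strand peaks lay wholly within one. The sense share over all protein-coding genes was not computed, so the share of 96.8% is not shown to be particular to the family.

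Few peaks of the same strand lay beside Ntn1. In the 200 kb upstream of Ntn1 there were 0 peaks on its strand, and the nearest lay 382 kb away. Downstream there were 2 in 200 kb, the nearest 7.85 kb beyond the gene end, antisense within Stx8, a syntaxin gene that ends next to Ntn1 and is transcribed towards it. Stx8 is longer than Ntn1 (241 kb) and held 5 sense peaks. On the other side Pik3r5, a phosphoinositide 3-kinase subunit gene (65.7 kb), held 3 and Pik3r6 0.

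The receptor peaks were all placed in introns (0 of 7 in exons, interval 0 to 35.4%), but 2 of those of Neo1 also contained a whole coding exon. By length, annotated exons make up 8.72 of 162 kb in Neo1, 9.22 of 573 kb in Unc5d and 6.26 of 69.0 kb in Unc5b. Neo1 had a pair in intron 5, 594 and 161 bases wide, which lay 5.34 and 6.23 kb from the nearest exon. Its other peaks, of 1139 and 940 bases with midpoints in introns 15 and 23, contained whole coding exons of 96 and 148 bases, the stretches shown above. All 4 lay between 39.0% and 88.3% of the gene length, and a further peak of 618 bases began 0.940 kb beyond the annotated end of Neo1. The 2 peaks of Unc5d, 512 and 438 bases wide, lay in its first intron of 328 kb, at 54.4 and 137 kb from the gene start. The peak of Unc5b, 1040 bases wide, lay in intron 2 at 40.8 kb, 7.54 kb from the nearest exon.

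The names of the listed peaks carry numbers that rise along each strand and skip values, and these bear on genes without listed peaks. If each number stands for 1 call made before filtering, the numbers between the nearest listed peaks on either side of a gene give the most calls it can have had. Around Unc5c that number was 0: the flanking peaks, 1953 kb apart, carry consecutive numbers. Around Ntn4 it was 10 over 343 kb, around Dcc 13 over 2795 kb and around Unc5a 22 over 423 kb. Around Unc5d it was 36 over 3624 kb and around Unc5b 72 over 871 kb. Divided by the gene's own length, the upper limit was 1.18 calls per 100 kb in Dcc, 0 in Unc5c and 6.28 in Unc5d. It was 9.39 in Ntn4, 38.9 in Unc5a and 104 in Unc5b. In Unc5a and Unc5b the limit is loose and does not show that few calls were made. Between the 2 listed peaks of Unc5d there were 11 numbers in 82.7 kb, the peaks included.

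Neo1 and Ntn1 had numbers at similar density, and the listed share of them was higher in Ntn1. Between the first and last listed peak, Ntn1 spanned 94 numbers in 182 kb (51.6 per 100 kb) and Neo1 41 numbers in 80.5 kb (50.9 per 100 kb). For the 1054 protein-coding genes of 100 to 300 kb with at least 2 peaks the median was 42.9 per 100 kb (quartiles 34.4 and 49.8). A number is called kept here when a listed peak carries it, and no source used here states that the skipped numbers were calls. Ntn1 kept 53 of its 94 (56.4%) and Neo1 4 of its 41 (9.76%), where the median of that class was 19.0%. Among 396 protein-coding genes with at least 10 peaks, Ntn1 ranked 8 by the share kept. A run of 6 consecutive numbers in Ntn1 was kept whole, from 38.8 to 52.7 kb. What decided which numbers were kept is not given in the sources used here, and the share is computed from the listed peaks that chose the members, so it supports nothing about them.

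**Figure D4:**
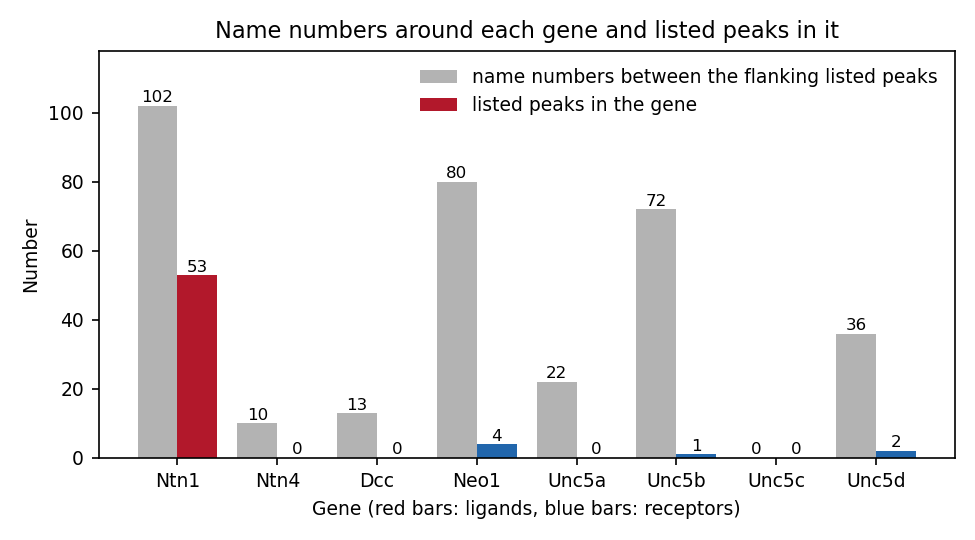
Name numbers between the nearest listed same-strand peaks on either side of each gene (grey) and listed sense peaks within the gene (red for ligands, blue for receptors), as numbers per gene. Ntn1 (102 numbers, 53 peaks) and Neo1 (80 and 4) have many numbers and different numbers of peaks, and Unc5c has 0 of both.

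Genes most like Ntn1 were sought among the 665 other protein-coding genes of similar length (153 to 239 kb), 472 of which had a peak (median over all of them 3 peaks). None had as many as Ntn1. The nearest were Sulf1, a heparan sulfate endosulfatase, with 47 peaks, Cdk6, a cyclin-dependent kinase, with 36, and Nxpe4 with 35. Sulf1 had the higher density, 0.278 per kb, and also kept 56.0% of its numbers, but 5 of its peaks were exonic and its median width was 647 bases. Cdk6 resembled Ntn1 in width (median 382.5 bases) and in having 1 exonic peak, at 0.190 per kb, and kept 46.8% of its numbers. Nxpe4 had 0 exonic peaks, a median width of 429 bases and 0.147 per kb, and kept 55.6% of its numbers.

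Other genes of the netrin system each had at most 11 peaks. Of the 4 remaining netrin genes, Ntn3 and Ntn5 had 1 each, that of Ntn3 in an exon, and the membrane-anchored netrins Ntng1 and Ntng2 had 0. Of 14 further binding partners 7 had a peak. These were led by the adhesion receptor gene Dscaml1 (9 peaks, 327 kb) and the neogenin ligand gene Rgma (5 peaks in 44.4 kb, 0.113 per kb), followed by the netrin receptor gene Dscam with 2 in 580 kb. Boc, Cdon, Flrt3 and Rgmb had 1 each. Of 27 genes that act downstream of netrin receptors 13 had a peak, with 11 each in Dock1 and Trio, which activate Rac, 9 in Prkca and 8 in Evl, an actin regulator. The highest density among these 4 was 0.0598 per kb in Evl. With median lengths of 59.1 kb for the binding partners and 64.1 kb for the downstream genes, shares of 50.0% and 48.1% with a peak stand beside 42.4% for genes from 30 to 100 kb. Both lists also hold shorter and longer genes, and the share was 68.1% from 100 to 300 kb and 68.6% at 300 kb and above. The lists are therefore not shown to be rich in genes with a peak for their lengths.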

How the data were processed

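RIP-seq of SAFB1, IgG and FLAG precipitates was deposited as 1 peak list for the whole series. Per the submitters' processing notes, STAR, Subread and featureCounts were used on mm10, with no versions. How peaks were called, filtered or pooled is not given in the sources used here. Each line has 6 columns without a header. The deposited score has the single value 500 throughout and was not used. Per-library reads were not analysed here, so depth is unknown. Starts were taken as counted from 0 and are printed from 1. Genes and exons came from GENCODE M21 (GRCm38), with exons of all transcripts merged. Peaks were placed by midpoint with pandas 2.3.3 and numpy 2.4.6 in Python 3.11.15. Wilson intervals used statsmodels 0.14.6 and Poisson intervals scipy 1.17.1, both at 95%. Counting was checked on simulated peaks in 200 genes. No tests were run. All members are named, with the 3 genes of like length with most peaks and up to 4 genes with most peaks per list, ties included. Members and lists were chosen with earlier results of these data known. Hjv was found under its older symbol Hfe2. Alternatives changed the placement, peak width, shared peaks, exon set and genes of a group.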

Additional observations from a re-analysis of the deposited data

How the results depend on the processing

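No paired analysis was possible because the list holds no values per library. Of 72 values recomputed under alternatives over 17 results, 62 stayed close to the reported value (counts, ranks, gaps and density ratios within 1.5 times, shares within their interval), 9 moved and 1 reversed. The 62 include counts of 0 that stayed 0, and shares that changed within a wide interval. With any peak overlapping an exon taken as exonic, the exonic share of the receptor peaks was 28.6% in place of 0%. That of Ntn1 was 3.77% in place of 1.89%. Placement by any overlap, by the whole peak or with the gene body extended by 1000 bases changed no count of any member, and leaving out peaks shared with another sense gene took 1 peak from Ntn1. With peaks of at least the median width, the ligand genes held 18 peaks (all in Ntn1), the receptor genes 3, Neo1 2 and Unc5d 0, Ntn1 ranked 17 by density in its length class, the median gap in Ntn1 was 8.91 kb and 100% of peaks in the gene bodies were sense, since both opposite-strand peaks are narrower. The density ratio of ligands to receptors was 46.9 in that setting, 0 without Ntn1 and 31.3 without Dcc, which follow from the peaks and lengths of the genes left out. The list gives no depth, so how far sequencing depth limits the absence of peaks in Ntn4, Dcc, Unc5a and Unc5c was not tested.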

Other observations

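Marker genes of cell types were also looked up, as a list of peaks gives no expression level and cannot show which cells were present. Of 12 markers of pluripotent cells 3 had a sense peak (25.0%, against 26.2% of all protein-coding genes): Esrrb with 2, and Tfcp2l1 and Zfp42 with 1 each. Many of the others are short genes, and the median length of the list was 5.94 kb. Of 10 neuronal markers 4 had a peak, with 4 in Stmn2, 2 in the exons of Nefl and 1 each in Rbfox3 and Tubb3, the last also lying in another gene. That share (4 of 10) stands beside 42.4% of genes from 30 to 100 kb, the class of the list's median length of 44.6 kb. Of 8 markers of primitive endoderm 4 had a peak, with 5 in Lama1, 4 in Col4a1, 3 in Dab2 and 1 in Gata4. That share of 50.0% stands beside the same 42.4% at the list's median length of 59.3 kb, and beside 68.1% of genes from 100 to 300 kb, the class of Lama1, Col4a1 and Dab2. The neuronal and primitive endoderm shares are near those of all genes of such lengths. No share was computed for genes as short as the median of the pluripotency list.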
